A study of Mus musculus with 75 samples.

Results

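Among the H3K27ac regions deposited for leptin receptor nuclei and other nuclei of the mouse hypothalamus, 26038 of 126368 (20.6%) were short, stood alone and overlapped no region of open chromatin. They were chosen by position alone: chromosomes 1 to 19, a length under 10000 bp, no overlap of 1 bp with any deposited ATAC region, and no other H3K27ac region within 1 bp. Of the 30443 isolated short regions on these chromosomes, 85.5% had no ATAC region over them, and the remaining 4405 serve below as the nearest comparison. The phrase "without open chromatin" means that no region of the ATAC table lies there. ATAC signal inside the members was not measured in the tables used here.

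H3K27ac, acetylation of lysine 27 on histone H3, marks active promoters and enhancers, and ATAC-seq finds DNA that is open to the Tn5 transposase. Active enhancers usually carry acetylated nucleosomes on either side of an open, factor-bound site. LepRb, the long form of the leptin receptor, is the signalling form through which leptin from fat tissue acts on hypothalamic neurons that control feeding.

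All mice were LepRcre/+; SUN1-sfGFP/+ and at least 2 months old, so the control groups carried the same alleles. In these mice Cre is driven from the leptin receptor gene and turns on a GFP tag of the nuclear envelope. Nuclei were sorted into GFP-positive (LepRb) and GFP-negative (the rest of the hypothalamus). The Fed group ate freely for 36 h, and the Fast group was fasted for 36 h with saline at 12, 24 and 34 h. The Lep2 group was fasted and given leptin at 5 mg/kg once, at 34 h (labelled 2 h of leptin). The Lep24 group was fasted and given the same dose at 12, 24 and 34 h (labelled 24 h). The sample titles code the groups as FedSSS, FasSSS, FasSSL and FasLLL. Read as S for saline and L for leptin, these codes also give saline to Fed and to Lep2 before its leptin dose. Each of the 8 combinations of treatment and sort had 2 H3K27ac libraries, 16 in all, from pooled hypothalami and 300000 to 540000 nuclei. No source used here says whether the 2 libraries of a group came from separate pools, so a p-value reflects the spread of these libraries alone, and that spread may be technical. Regions carry no gene names in the files, so markers of the sorted cells could not be checked and members are given by mm9 position.

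Signal is the authors' normalized value, and sequencing depth is unknown. The members were short and weak beside the whole table. Their median length was 1645.5 bp (quartiles 849 and 3052), and their median signal was 22.4 (quartiles 12.0 and 41.2), against 26.2 over all regions. Touching regions, those under 10000 bp with another H3K27ac region within 1 bp, were much alike. Their medians were 1703 bp, 22.1 in signal and 13.4 in signal per kilobase. Per kilobase they did not stand far from the rest: the median was 13.8 for members, 13.9 for all regions, 15.1 for isolated regions that overlapped ATAC and 18.9 for regions of 10000 bp or more. Together the members covered 59.1 Mb and held 8.32% of the H3K27ac signal. A value of 0 in at least 1 library was found for 2012 members (7.73%), and in 8 or more libraries for 14.

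The median member lay 17280 bp from the nearest ATAC region, with quartiles of 7779 and 36479 bp. Only 346 members lay within 1000 bp of one, and 1491 lay more than 100000 bp away. The nearest other H3K27ac region was 4929.5 bp away at the median. Members made up 17.6% (chromosome 11) to 24.3% (chromosome 10) of the H3K27ac regions of each autosome. At the edges of the rule, the longest member had 9998 bp and a mean signal of 156, and the shortest isolated region just outside it had 10011 bp and 134. The member closest to an ATAC region was 2 bp from it, with a signal of 48.5, and the smallest ATAC overlap among regions just outside was 14 bp, at regions with signals of 4.68 and 9.09. The smallest gap to another H3K27ac region was 2 bp (chr17:56134412-56137510, signal 49.9), and the region just outside had a gap of 1 bp (chr4:65608817-65609150, signal 4.46).

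A summed mitochondrial signal above 5000 marked 6 of the 16 libraries, called the set below: both sorts of replicate 1 of the Fed, the Lep2 and the Lep24 group. The members' share of all signal was 8.29 to 8.97% in these 6 libraries and 7.84 to 8.20% in the other 10, with no overlap. The members' median signal ran from 20.3 to 23.6 over the 16 libraries. Over members, the correlation of log2 signal (Pearson's r) between the 2 libraries of a group ranged from 0.773 to 0.908, below the 0.880 to 0.966 over all regions. No Fast library belonged to the set, so every comparison with Fast was partly a comparison with it. Results are therefore given with all 16 libraries and with the 10 outside the set.

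**Figure D1:**
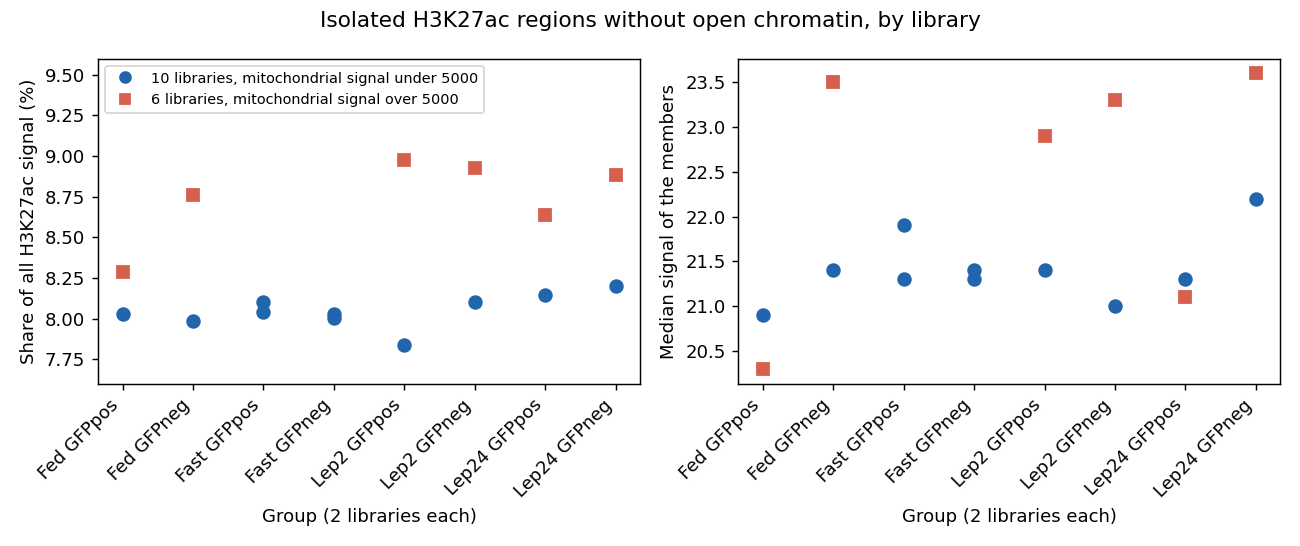
Members' share of all H3K27ac signal (left, percent) and their median signal (right, authors' normalized value) in each of the 16 libraries, 1 point per library, 2 per group; orange squares are the 6 libraries with mitochondrial signal above 5000. The squares lie at 8.29 to 8.97% on the left, above all 10 circles at 7.84 to 8.20%.

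The sorts were compared over all treatments to ask where LepRb nuclei differ from the rest of the hypothalamus. Of the 24259 members that passed the filter on low signal, 2893 were called (11.9%, against 9.22% of all 113725 regions tested), with limma on log2(signal + 1) and an adjusted p under 0.05. H3K27ac was higher in GFP-positive nuclei at 791 members (3.26%, against 3.26% of all regions) and lower at 2102 (8.66%, against 5.97%). The lower members differed more, as did the lower regions of the whole table. A difference of 2-fold or over was found for 714 lower members (34.0%, against 29.1% of all lower regions). Among higher members it was found for 38 (4.80%, against 4.61% of all higher regions). Median log2 differences of lower and higher members were -0.87 and 0.67, against -0.83 and 0.64 over all called regions. The median over all tested members was -0.01, against 0.03 over all regions. The remaining 1779 members lay below the filter and were not tested. The 8 libraries of one sort lay wholly above the other at 110 members for GFP-positive above GFP-negative (0.453%, against 0.674% of all regions) and at 483 for the reverse (1.99%, against 1.65%).

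These counts moved with the libraries used. In the 10 outside the set only the Fast groups kept 2 libraries, so the spread in that fit came from the Fast pairs alone. Over all regions these pairs correlated at 0.966 (GFP-positive) and 0.960 (GFP-negative), the highest of any group. The other groups were assumed to vary as little, which limits every call in the 10 given below. The 6 of the set were fitted with a mean per treatment and a common sort difference. In the 10 libraries outside the set 33.1% of members were called, against 32.5% of all regions, with 3946 higher (16.3%, against 16.6%) and 4082 lower (16.8%, against 15.9%). In the 6 libraries of the set 2.48% were called, against 4.1% of all regions, with 24 higher (0.0989%, against 2.06%) and 578 lower (2.38%, against 2.04%). Lower members thus outnumbered higher ones by far with 16 libraries and with the 6, and were close to them in number with the 10. The share lower exceeded that of all regions in each, but by little with the 6 and with the 10. With the set as a term in the fit of all 16 libraries, 2533 members were higher (10.4%, against 13.2%) and 4063 lower (16.7%, against 13.4%), together 27.2% against 26.6%. Leaving out 1 library moved the total of 2893 by over 1.5 times for 6 libraries. In GFP-positive nuclei the total was 1491 without replicate 2 of Lep24, 1511 without replicate 2 of Fed, and 1602 or 1727 with the first or the second Fast library left out. In GFP-negative nuclei it was 1692 or 1779 with the first or the second Fast library left out. The 791 higher members also fell by over 1.5 times without 4 further libraries: replicate 1 of Fed in GFP-positive nuclei (518), replicate 2 of Lep2 in GFP-positive (403) and GFP-negative nuclei (449), and replicate 2 of Lep24 in GFP-negative nuclei (379).

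Isolated regions that did overlap ATAC had a different balance. Of 4394 tested, 361 were higher and 365 lower with 16 libraries, and 1460 higher and 644 lower with the 10 outside the set. They were also stronger (median signal 50.6), so both classes were set side by side at like signal. At a mean signal of 20 to 50, in the 10 libraries, 19.5% of 9651 members and 32.3% of 1637 regions with ATAC were higher, while 1830 members and 209 regions with ATAC (12.8%) were lower. At 50 to 100 992 of 3974 members and 39.4% of 1483 regions with ATAC were higher, and the shares lower were 27.4% and 18.5%. At 10 to 20 they were 9.68% and 15.7% higher, and 10.9% and 8.52% lower. In the 10 libraries, a smaller share of members than of regions with ATAC was higher in each of these signal ranges, and a larger share was lower. With 16 libraries the shares higher were alike at 10 to 20, at 2.18% for both classes. They were 4.70% and 9.65% at 20 to 50, and 3.95% and 10.3% at 50 to 100. The shares lower with 16 libraries were 5.23% and 2.62%, 10.4% and 7.15%, and 14.6% and 12.0% over the same ranges. These shares are a description, and the difference between the classes was not tested.

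**Figure D2:**
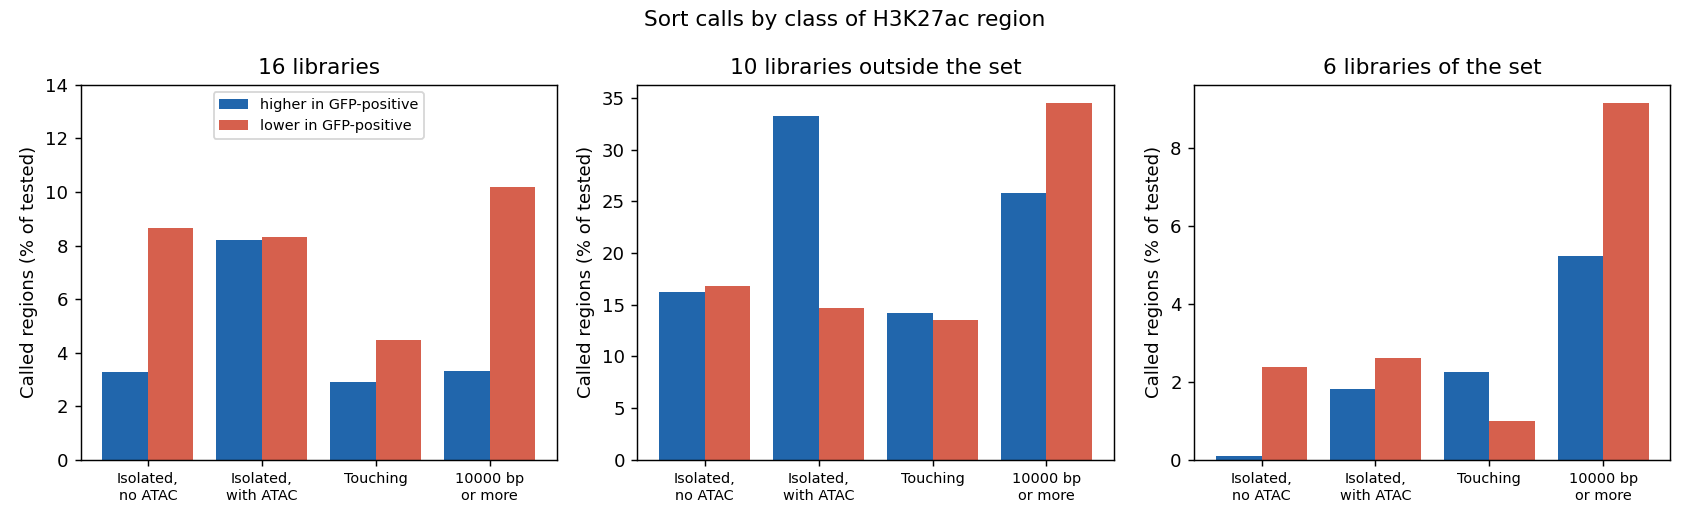
Share of tested H3K27ac regions called higher (blue) or lower (red) in GFP-positive than in GFP-negative nuclei, in percent, for 4 classes of region, with all 16 libraries, the 10 outside the set and the 6 of the set; the vertical scales differ. Members (first pair of bars) are 3.26% higher and 8.66% lower with 16 libraries, and 16.3% and 16.8% with the 10.

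Calls rose with the length and signal of a member. With 16 libraries, 1.37% of members up to 500 bp and 18.6% of those of 4000 bp or more were called. The share higher fell from 5.09% at 2000 to 4000 bp to 3.10% above that. The rise with signal was not particular to members. In isolated regions with ATAC the share lower was 2.62%, 7.15% and 12.0% at signals of 10 to 20, 20 to 50 and 50 to 100. The share higher there was 2.18%, 9.65% and 10.3%. With members split into 5 equal parts by signal, the share lower rose from 2.56% in the weakest part to 14.4% in the strongest, and the share higher from 0.886% to 5.40% in the next to strongest, with 3.53% in the strongest. At the median member the 95% interval of the sort difference reached 0.43 log2 units to either side before any adjustment for the number of regions, so a call needed a larger difference than that.

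From each direction 10 members were named by the smallest p among those with the same sign in all 8 pairs of libraries of one treatment and replicate number, which 363 of the 791 and 1377 of the 2102 met. The 10 higher ones were 1368 to 3596 bp long and lay 8862 to 105452 bp from ATAC. At chr19:20699081-20701167 the signal was 21.1, 31.15 and 41.3 in GFP-positive libraries (lowest, median and highest of 8) and 11.3, 14.8 and 16.3 in GFP-negative ones. Every GFP-positive library there exceeded every GFP-negative one, and the difference was 2.14-fold (log2 1.10, SE 0.14, adjusted p = 0.00116).

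At chr3:93308708-93310979 the values were 31.5, 34.45 and 48.2 against 11.6, 14.75 and 23.7, a 2.22-fold difference without overlap. The largest fold of the 10 was at chr3:53341853-53344467, at 2.47-fold, with 32.6, 53.4 and 63.5 against 12.4, 21.35 and 30.2. That difference came mainly from libraries outside the set, where it was 1.77 log2 units, against 0.58 within the set. Groups overlapped at 2 of the 10: chr1:67550111-67551478, with a lowest GFP-positive value of 15.8 and a highest GFP-negative value of 16.9, and chr15:45140461-45144056, with 48.8 and 52.3.

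The other 5 higher members were chr2:159724171-159726916, chr3:120817487-120820483, chr3:61058615-61061619, chr9:104197573-104199936 and chr14:78332134-78334459, with folds of 1.74 to 2.04. Of the 10, 4 lay on chromosome 3, where 71 of 1355 tested members (5.24%) were higher, the largest share of any autosome. The others had 2.22 to 4.14%. Calls over all regions were not counted by chromosome, so this share cannot be called particular to members. For chr2:159724171-159726916 and chr1:67550111-67551478 the nearest ATAC region, 74104 and 105452 bp away, was called less open in GFP-positive nuclei, opposite to the H3K27ac difference.

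The 10 lower members differed by 2.30 to 3.51-fold, each with an adjusted p of 0.000802, and at none of the 10 did the sorts overlap. At chr9:101188095-101190501 the signal was 6.9, 15.4 and 24.6 in GFP-positive libraries and 34.6, 48.5 and 57.3 in GFP-negative ones (3.03-fold; log2 -1.60, SE 0.15). At chr3:57715027-57717689 it was 7.7, 13.25 and 24.6 against 32.1, 43.8 and 74.8 (3.35-fold). The longest of the 10, chr16:26709928-26716294 with 6367 bp, carried 37.7, 48.15 and 80.2 against 103.8, 123.5 and 153.4 (2.48-fold).

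The rule for naming required GFP-positive libraries to be the lower of every pair, those of the set included. The member at chr6:94108803-94110585, with 6.3, 9.15 and 16.2 against 21.0, 30.8 and 45.3 (2.95-fold), was the closest of the 10 to open chromatin, at 3085 bp. At chr19:56027299-56028652 the values were 7.6, 10.0 and 14.3 against 22.7, 28.65 and 34.8 (2.59-fold). The member farthest from ATAC among them was chr10:56681278-56683978, at 147080 bp, with 9.4, 13.45 and 16.8 against 28.5, 46.45 and 63.9. The remaining 4 were chr16:31366236-31368725, chr16:15983802-15986381, chr5:44258891-44262309 and chr9:28171407-28175036. None of the 10 had a nearest ATAC region that was itself called. At chr6:94108803-94110585, however, that ATAC region lay below the filter on low signal and was not tested.

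**Figure D3:**
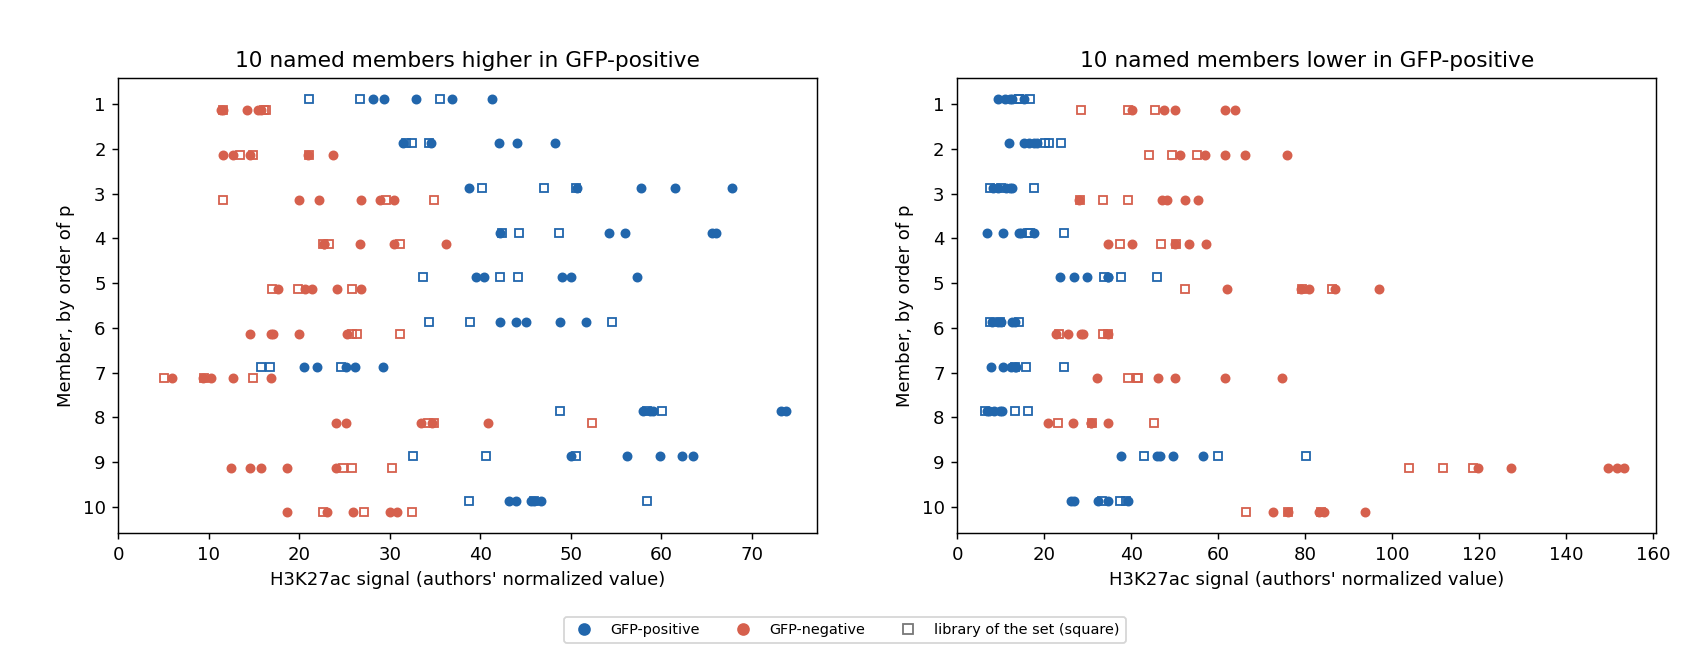
H3K27ac signal (authors' normalized value) in each of the 16 libraries for the 10 named members higher (left) and lower (right) in GFP-positive nuclei, in order of p; blue is GFP-positive, red GFP-negative, and open squares are the 6 libraries of the set. All 10 lower members and 8 of the 10 higher ones show no overlap between the sorts.

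The set shares no library with the other 10, so each can be read against the other. Of the 3946 members called higher in the 10 libraries, 63.4% were also above 0 in the 6, where 39.9% of all tested members were, and their median fell from 0.65 to 0.09. Of the 4082 called lower, 88.7% were also below 0 in the 6, where 60.1% of all tested members were, and their median went from -0.84 to -0.39. Both groups of libraries called 10 members higher and 406 lower, and 1 of each direction was called the opposite way. The same sign was thus found for a larger share of the lower members than of the higher ones, and this difference was not tested. Read the other way, the 578 members called lower in the 6 libraries were below 0 in the 10 for 94.1%, with medians of -0.94 and -0.96, and the 24 called higher were above 0 for 83.3%, with medians of 1.18 and 0.42.

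**Figure D4:**
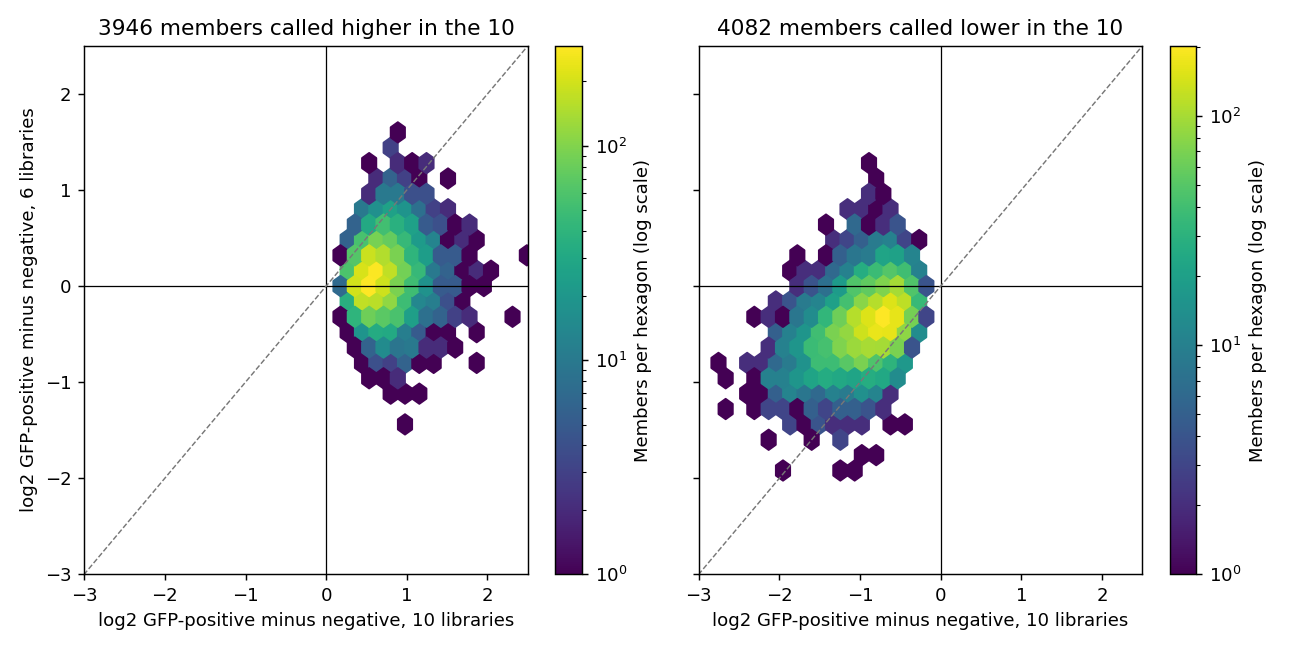
Log2 difference GFP-positive minus GFP-negative of members in the 6 libraries of the set (vertical) against that in the 10 other libraries (horizontal), for the 3946 members called higher and the 4082 called lower in the 10; colour is the number of members per hexagon on a log scale and the dashed line marks equal values. The higher members centre near 0 in the set (median 0.09), the lower ones at -0.39.

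The direction of the sort difference varied with the distance from open chromatin. With 16 libraries the share of members higher in GFP-positive nuclei was 3.04% within 1000 bp of an ATAC region, 1.68% at 1000 to 5000 bp, 2.78% at 5000 to 20000 bp, 3.87% at 20000 to 100000 bp and 6.41% beyond that. The share lower was 5.78%, 7.44%, 8.76%, 8.93% and 9.84% over the same steps. Held to a mean signal of 20 to 50 and to the 10 libraries, the share higher was 11.5%, 13.7%, 16.1%, 23.1% and 32.4% over the same steps, with 139 members in the nearest and 550 in the farthest. The share lower there ranged only from 17.3 to 21.5%. Touching H3K27ac regions of like signal that also had no ATAC overlap were higher in 13.8% within 1000 bp, 8.32% at 1000 to 5000 bp and 21.4% beyond 100000 bp in the 10 libraries. With 16 libraries the share was highest within 1000 bp, at 4.26%, and was 3.17% beyond 100000 bp. In the set, 12 members of this signal range were called higher in all, 1 of them beyond 100000 bp, too few to read a trend. Lower in the set were 1 of 139, 22 of 1109, 71 of 3948, 82 of 3905 and 35 of 550 (6.36%) over the same steps, so the share was highest at the farthest one.

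**Figure D5:**
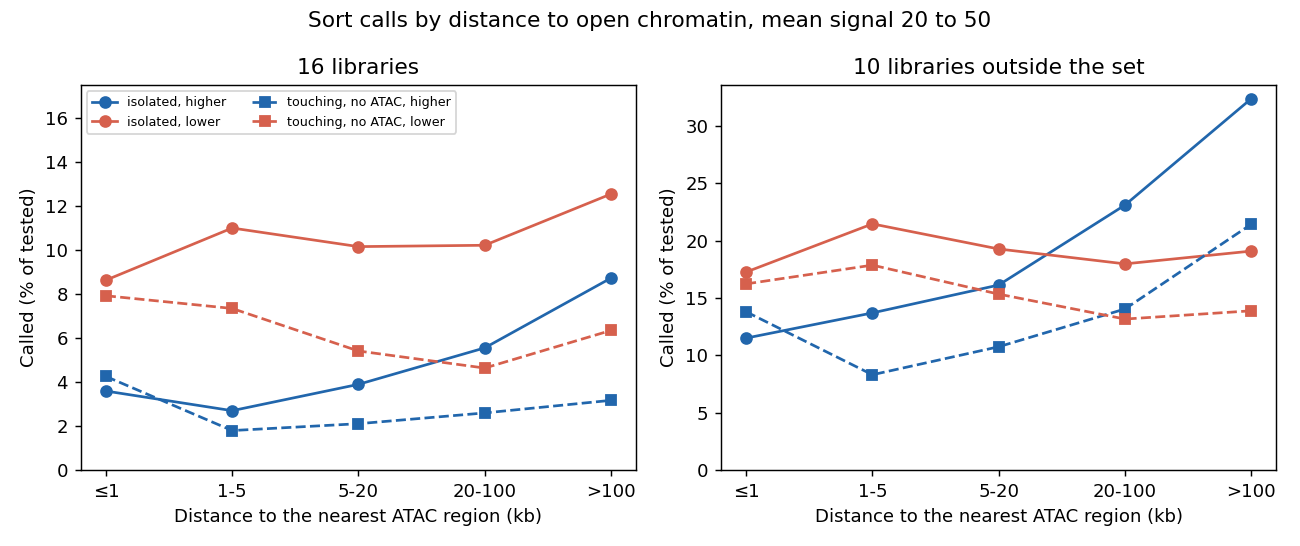
Share of tested regions with a mean signal of 20 to 50 called higher (blue) or lower (red) in GFP-positive nuclei, in percent, by distance to the nearest ATAC region in kb, for members (circles, solid) and touching regions without ATAC overlap (squares, dashed). In the 10 libraries the members' share higher goes from 11.5% within 1 kb to 32.4% beyond 100 kb.

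Neighbouring regions were read next. Of the 2102 lower members, 1294 had a tested H3K27ac region within 10000 bp, and that neighbour was lower in 457 (35.3%) and higher in 7. Over all tested members the neighbour was lower in 7.56%. Of the 357 higher members with such a neighbour it was higher in 24 (6.72%) and lower in 5, against 2.59% higher over all. A tested ATAC region lay within 10000 bp of 583 lower members and was less open at 58 of them (9.95%) and more open at 11, against 5.60% less open over all 6908 members with one. For the 133 higher members it was more open at 9 (6.77%) and less open at 6, against 4.69% more open over all. Members close together share these neighbours, so the counts are no replicates.

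The stretches with the most called members were picked after their values were seen. In the 1 Mb window chr4:97000001-98000000, 11 of 18 tested members were lower in GFP-positive nuclei and none (0) higher, with a median log2 difference of -0.97. In chr13:108000001-109000000, 11 of 23 were lower and 0 higher. The window with the most higher members was chr3:119000001-120000000, with 6 of 14 and 0 lower. Over 2242 windows with a tested member, 253 held 3 or more lower members and 36 held 3 or more higher ones. Lower calls also outnumbered higher ones over all members (2102 and 791). The calls of all other regions in these windows were not counted, and clustering of called members was not tested.

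The strongest members were strong mainly in the set. By signal per kilobase, the first was chr12:3109695-3110338 (644 bp), with a mean of 8561 in the 6 libraries and 474 in the 10 others. Within it, Fed GFP-negative replicate 1 reached 27820.5, and no library was below 179.5. The next, chr13:77577979-77578527 (549 bp), had means of 384 and 93.2, and chr4:64158786-64159089 (304 bp) had 137 and 28.2.

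At chr17:36621430-36622070 the means were 172 and 33.4, and at chr10:21862297-21863033 they were 148 and 41.4. None of these 5 was called between the sorts (adjusted p of 0.367 to 0.977). Of the 18 members above 40 per kilobase, 13 had a mean in the set of at least 2 times that outside it, as did 775 of all 26038 members (2.98%). Those 775 held 5.80% of the members' signal in the set and 2.25% outside it. Of them, 0 were called higher and 2 lower between the sorts, so the sort counts above rest almost wholly on other members.

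By total signal the list was chr12:3109695-3110338, chr1:87487571-87489730, chr15:39221518-39228705, chr13:77577979-77578527 and chr13:48900564-48910173. Among these, chr15:39221518-39228705 went the other way, with 144 in the set and 245 outside it. The member farthest from open chromatin, chr7:22047880-22053556 (1403309 bp from ATAC), was all but confined to the 2 Fed replicate 1 libraries, with 907.8 in GFP-negative and 126.1 in GFP-positive nuclei. In the other 14 libraries it ranged from 0 to 3.3. The longest member, chr5:72213085-72223082, was 1.53-fold higher in GFP-positive nuclei (log2 0.62, SE 0.11, adjusted p = 0.00575). The shortest, chr12:34085745-34085944 (200 bp), had a mean signal of 4.70 and was not tested.

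Treatment was compared within each sort, to ask what fasting and leptin did to the mark. No member (0) was called between Fast and Fed, between Lep2 and Fast or between Lep24 and Fast, in either sort, nor in the difference of those changes between sorts, and neither was any other region (0% of 113725 in each). Without adjustment, 661 members had a p under 0.05 between Fast and Fed in GFP-positive nuclei (2.72%; 1.91% of all regions) and 1994 in the other sort (8.22%; 5.98%). Lep2 against Fast gave 1174 (4.84%; 3.27%) and 1493 (6.15%; 4.63%). Lep24 against Fast gave 954 (3.93%; 2.65%) and 2083 (8.59%; 6.05%). With no change anywhere, a share of 0.05 would be expected under this cut. The members' shares lay below that in GFP-positive nuclei and above it in GFP-negative nuclei. The smallest adjusted p among members was 0.714. The median 95% interval of a treatment change reached 0.86 log2 units to either side before adjustment, and a call over 113725 regions needed a larger change than that.

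The members' median changes were small. For Fast against Fed the median was 0.00 in the first sort, GFP-positive, and -0.06 in GFP-negative nuclei, against -0.01 in both over all regions. For Lep2 against Fast they were 0.05 and 0.08, against 0.00 and 0.02 over all regions, and for Lep24 against Fast 0.02 and 0.07, against 0.00 and 0.01. These comparisons share the Fast libraries. In GFP-negative nuclei the medians were thus below 0 for Fast against Fed and above 0 for both leptin groups against Fast. In that sort the 2 Fast libraries had member medians of 21.4 and 21.3, the set libraries 23.3 to 23.6, and the other 3 libraries 21.0 to 22.2.

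In the 10 libraries outside the set, Fed, Lep2 and Lep24 had 1 library per sort, which the fit assumes to vary like the Fast pair. There, Fast against Fed called 34 members in GFP-negative nuclei, all higher (0.14%, against 0.0871% of all regions). Lep24 against Fast called 9 higher and 122 lower in GFP-negative nuclei (0.54%, against 0.751%). The other 4 comparisons within a sort called 0 members. Over the whole table they called 1 region for Fast against Fed in GFP-positive nuclei (0.000879%), 1 for Lep2 in GFP-positive (0.000879%), 0 for Lep2 in GFP-negative (0%) and 4 for Lep24 in GFP-positive nuclei (0.00352%). These calls each rest on a single Fed or Lep24 library. With all 16 libraries less 1, between 0 and 11 members were called in any of these comparisons, with 11 for Fast against Fed in GFP-negative nuclei without Fed GFP-negative replicate 2.

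With none called, the members with the smallest unadjusted p are given as a description. In GFP-negative nuclei, chr2:11364299-11365293 carried 5.0 and 7.3 in Fed and 19.9 and 21.3 in Fast libraries (log2 1.61, SE 0.30, adjusted p = 0.716). Its other 12 libraries, both sorts included, ranged from 10.6 to 22.4, so the 2 Fed GFP-negative libraries were the low ones. At chr14:67787991-67788519 the Fed GFP-negative libraries had 1.3 and 0.0 and the Fast ones 7.4 and 8.2, and the nearest ATAC region, 9824 bp away, was called more open in GFP-positive nuclei. Without the set, this member passed the test (adjusted p = 0.0384).

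In that comparison 2 members went the other way. At chr2:77883582-77884487 the Fed GFP-negative libraries had 29.3 and 21.4 and the Fast ones 4.9 and 5.0 (log2 -2.13, SE 0.42). At chr7:71398167-71398868 the Fed libraries had 13.4 and 4.4, and both Fast libraries were listed at 0.0. The Lep2 GFP-negative libraries had 11.5 and 8.0 there, so the same member led Lep2 against Fast in that sort.

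In GFP-positive nuclei, chr16:36093844-36095124 had 7.5 and 12.1 in Fed and 24.7 and 23.6 in Fast libraries (log2 1.25, SE 0.33, adjusted p = 0.985). At chr12:118896027-118898911 the values were 26.4 and 35.6 in Fed and 13.2 and 11.9 in Fast (log2 -1.23, SE 0.32). At chr9:10311283-10311818 they were 1.6 and 0.0 in Fed and 8.5 and 8.2 in Fast. The weak member chr8:114212613-114212936 had 6.3 and 5.1 in Fed, 0.0 and 0.0 in Fast, 3.3 and 6.3 in Lep2 and 3.7 and 4.8 in Lep24, and was named in all 3 comparisons for its values of 0 in Fast.

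After a single leptin dose, chr6:83806506-83808036 had 9.3 and 5.6 in Fast and 39.2 and 16.6 in Lep2 GFP-positive libraries (log2 1.69, SE 0.38, adjusted p = 0.923). The higher of these was the library of the set. Lower values were found at chr2:161891596-161892501, with 12.4 and 10.6 in Fast and 1.9 and 4.0 in Lep2, and at chr7:30812179-30812592, with 8.5 and 15.5 against 1.9 and 2.8. In GFP-negative nuclei chr5:102265026-102266283 had 36.8 and 43.9 in Fast and 14.9 and 19.9 in Lep2 (log2 -1.18, SE 0.28). The Fast GFP-negative pair was the highest of the 16 libraries at that member. At chr1:63135844-63136869 the values were 18.4 and 25.4 in Fast and 7.1 and 10.2 in Lep2.

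After 3 leptin doses, chr10:88677422-88681239 had 16.9 and 16.7 in Fast and 49.7 and 35.7 in Lep24 GFP-positive libraries (log2 1.28, SE 0.31, adjusted p = 0.942), with 29.0 and 30.4 in Fed. Lower were chr15:33295124-33296571, with 24.0 and 29.3 in Fast and 12.6 and 7.0 in Lep24, and chr15:31653009-31654113 (log2 -1.30, SE 0.34), with 6.8 and 7.0 in Lep24. In GFP-negative nuclei, chr7:116544640-116545850 had 2.3 and 3.3 in Fast, 12.6 and 12.4 in Lep2 and 26.0 and 11.0 in Lep24, and was named against both leptin groups. Fed GFP-negative libraries had 9.9 and 8.8 at this member, so Fast was the lowest of the 4 treatments. At chr16:91432433-91433851 the values were 6.6 and 8.2 in Fast and 37.5 and 22.2 in Lep24 (log2 1.84, SE 0.34, adjusted p = 0.714). The lower pair were chr6:70663781-70664759, with 24.4 and 29.5 in Fast and 4.3 and 7.8 in Lep24, and chr10:36792838-36793618, with 27.4 and 29.5 against 5.3 and 7.8.

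The difference of the treatment changes between sorts had 920 members for Fast against Fed, 919 for Lep2 and 885 for Lep24 at an unadjusted p under 0.05. These were 3.79%, 3.79% and 3.65%, against 2.36%, 2.36% and 2.17% of all regions. All of these shares lay below the share of 0.05 expected with no change. For Fast against Fed, chr16:38679840-38680494 had 9.6 and 9.8 in Fed and 4.4 and 4.3 in Fast GFP-positive libraries, with 6.6 and 4.4 against 20.7 and 24.1 in GFP-negative ones. For Lep2, chr1:183733705-183736050 had 9.3 and 9.4 in Fast and 30.0 and 18.6 in Lep2 GFP-positive libraries, with 51.0 and 59.0 against 28.3 and 31.6 in GFP-negative ones. For Lep24, chr1:132400952-132402578 had 34.9 and 40.3 against 19.3 and 26.2 in GFP-positive and 11.4 and 9.7 against 29.8 and 22.2 in GFP-negative nuclei. None passed the test after adjustment (adjusted p of 1).

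The authors' deposited table, with an FDR for 18182 of the members in its comparison of the sorts, gave 2751 members under 0.05 (15.1%, against 15.4% of all its regions with an FDR), of which 710 were higher and 2041 lower in GFP-positive nuclei. Of these, 1938 were also called here in the same direction. In the authors' deposited table the sorts differed at 1594 members within the Fast group (10.2%, against 10.1% of all regions), 329 within Lep24 (3.76%, against 4.29%) and 177 within Lep2 (3.08%, against 3.66%). Members lower by the authors' deposited table outnumbered those higher in each (1234 and 360, 317 and 12, 169 and 8). Directions over all regions were not counted for any of the authors' comparisons, so these splits cannot be called particular to members. The Fast group is the one without a library of the set. The authors' deposited table gave 0 members under 0.05 for any leptin comparison, and 0 of all 126368 regions.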

How the data were processed

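H3K27ac ChIP-seq and ATAC-seq tables of 16 libraries each were used. The series' RNA samples (23) and input samples (16 for ChIP, 4 for ATAC) were left aside. Per the file headers, the authors deposited normalized signal per region and library, variance-stabilized values (a score, used here only as an alternative for H3K27ac), and for their own comparisons log2 fold changes and FDR (adjusted p-values). The method behind the signal's normalization is not stated in any source used here. Its low values step unevenly, so whole reads were not recovered and depth is unknown, which limits the precision that can be stated. The 16 per-library columns of stabilized ATAC values were not used. The submitters' processing notes list, with no roles, DESeq2 1.16.1, HTSeq 0.6.0, MACS2, Bowtie2 2.2.6, Bowtie 1.2, STAR 2.5.2b and CASAVA 1.8, and the build mm9.

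Regions with a mean signal in the lowest 10% (below 5.96) were left out. The other 113725 were fitted as log2(signal + 1) with limma 3.58.1 in R 4.3.3 (with the package data.table, version 1.17.8, matplotlib 3.10.9 and pandas 2.3.3), with 8 group means, 8 residual degrees of freedom and an intensity-dependent variance prior. Fold changes are on that scale and understate changes where signal is low. Two-sided p-values were adjusted by Benjamini-Hochberg over all regions tested and called under 0.05. ATAC regions were fitted alike (43767 tested). With the 10 libraries outside the set the 8 group means were kept, so the residual spread came from the Fast pairs alone. The 6 libraries of the set were fitted with a mean per treatment and a common sort difference. The fit was tested on simulated data. No library was a copy of another (0 identical pairs).

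The members, the set of 6 libraries and the alternatives were chosen with earlier results of these data known. Named members were the 10 higher and 10 lower with the smallest sort p and the same sign in all 8 pairs, per treatment comparison the 2 higher and 2 lower with the smallest p (for the difference between sorts 1 is printed), the 5 highest by signal and by signal per kilobase, the longest, the shortest, and the farthest from ATAC. Positions are mm9, counted from 1. No annotation of that build was at hand, so no gene names or sequences are given. The alternatives were quantile normalization, median centring, stabilized values, no filter, pseudocounts of 0.1 and 5, replicate blocks, only the groups compared, an adjusted p of 0.01, library weights, the set as a term, subsets of libraries, each library left out, and 3 stricter definitions of a member.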

Additional observations from a re-analysis of the deposited data

How the results depend on the processing

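The 791 higher, 2102 lower and 2893 called members stayed within 1.5 times under quantile normalization, median centring, stabilized values, no filter, both pseudocounts, library weights and the stricter member definitions. Members called in total, higher and lower were 921, 96 and 825 at an adjusted p under 0.01, 6596, 2533 and 4063 with the set as a term, 8028, 3946 and 4082 with the 10 libraries outside the set and 602, 24 and 578 with the 6 of the set. Leaving out 1 library gave 1491 to 3690 called, 221 to 932 higher and 1270 to 2758 lower. The cause of these shifts was not tested; the subsets also hold fewer libraries. Same-numbered libraries correlated in their deviations from group means at 0.34 to 0.55 for pairs of groups among Fed, Lep2 and Lep24, whose replicate 1 libraries are the set, and at -0.16 to 0.02 for pairs with Fast. Not every pair deviated together, so the main fit used no pairing. Between the sorts of one treatment, the pairing that bears on the sort difference, the values were 0.45 (Fed), 0.50 (Lep2), 0.37 (Lep24) and 0.01 (Fast). With the replicate block 4499 members were called (1462 higher, 3037 lower), and with the replicate block by library pair 6105 (2283 and 3822).

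Members whose nearest ATAC region within 10000 bp was called in the same direction numbered 67. They were 38 with a pseudocount of 0.1, 11 at an adjusted p under 0.01, 148 with the replicate block, 197 with the block by library pair, 150 with the set as a term, 175 with the 10 libraries and 20 with the 6, and 42 to 91 with 1 library left out.

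Treatment calls of members stayed at 0 with all 16 libraries under each alternative run. With the 10 libraries there were 34 for Fast against Fed and 131 for Lep24 against Fast, both in GFP-negative nuclei. With 1 library left out there were 0 to 11 (Fast against Fed) and, against Fast, 0 to 3 (Lep2) and 0 to 5 (Lep24) in GFP-negative nuclei, 0 to 1 for Fast against Fed between sorts, and 0 in the rest. The 20 members named for the sort kept direction and call in every alternative except the 6 libraries of the set, where 9 of the 10 higher ones no longer passed the test. Depth is unknown, and 2 libraries per group limit the treatment comparisons.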
